A study of Copadichromis virginalis x Mchenga conophoros with 6 samples.

Results

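Chromatin modifiers and remodellers were examined in the whole brains of male F1 hybrids between a pit-digging and a castle-building Lake Malawi cichlid. The set holds 71 genes whose symbols name subunits or families of chromatin regulators (smarc, arid, dpf, chd, brd, hdac, kat, ing, jade, kmt, setd, ezh, kdm, pcgf, cbx, phf, tet, smc and ncap) and that had counts in both pit digging and both isolated libraries. They were taken from 8304 genes listed in those 4 libraries, out of 13212 listed in any library, and 65 of them were also listed in castle building. Each animal carried one genome copy from Copadichromis virginalis, whose males dig pits, and one from Mchenga conophoros, whose males build castles, and reads were assigned to either parental allele. By role, the set holds 9 SWI/SNF subunits, 9 ISWI, CHD and related remodellers, 6 histone deacetylases, 6 acetyltransferase genes and subunits, 1 BET bromodomain reader, 12 histone methyltransferases, 7 demethylases, 7 Polycomb and chromobox genes, 2 TET genes, 3 SMC and condensin genes and 9 other PHD finger or ARID genes. The groups were males from a pit digging, a castle building or a social isolation paradigm, with 2 libraries each, all of the same cross. The labels give no age, duration, brood or direction of the cross, and the set was not compared with either parent.

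Chromatin regulators set how tightly DNA is wrapped on nucleosomes and which marks its histones carry. Remodelling ATPases such as those of the SWI/SNF and CHD families slide or evict nucleosomes, writers add acetyl or methyl groups to histone tails, erasers remove them, and reader domains (bromodomains, PHD fingers, chromodomains) bind the marked tails. Polycomb complexes maintain repressed genes, TET enzymes oxidise methylated cytosine, and the SMC rings of cohesin and condensin fold chromosomes. In neurons, several of these proteins take part in activity-dependent transcription and in differentiation, and mutations in many of them cause neurodevelopmental disorders in humans. The roles given below are those known from mammals or yeast.

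Libraries held 2155680 to 3294397 allele-assigned counts. No deposited gene had fewer than 6 counts on either allele. An unlisted gene therefore cannot be read as a count of 0, and a strongly one-sided gene of low count goes unseen. The smallest total of both alleles was 21 in the castle building tables and 12 in the pit digging and isolated tables. The 2 castle building tables differed by less than sampling noise (chi-square per degree of freedom 0.495, against 27.3 for pit digging and 20.4 for isolation), with identical counts on both alleles for 18 of the 65 members listed, and were counted as 1 sample. Castle building therefore has n = 1, and in its tests the other libraries stand in for its spread. Separate broods behind the replicates are not stated, and a p-value here speaks of the spread of these libraries, which may be technical. Of markers for neurons, 8 of 10 were listed in the 4 pit digging and isolated libraries, of myelin 4 of 8 and of radial glia and astroglia 3 of 8, whereas none of 5 erythrocyte, 6 pituitary, 6 retina and pineal or 6 cell division markers was. Castle building stood apart in some of these markers. Its summed level of the 3 myelin markers listed in every table (mbp, mpz, sox10) was 872 to 873 CPM (counts on both alleles, normalised to TMM-adjusted library size), against 5983 to 6003 in pit digging and 4867 to 5074 in isolation. The sum is mostly mpz, at 754 CPM in castle building and 4769 to 5884 CPM elsewhere, while mbp (34.5 CPM) and sox10 (83.8 CPM) lay within the range of the other libraries.

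Most chromatin genes, like most genes of the series, were expressed almost equally from both alleles. The mean C. virginalis share over the 4 pit digging and isolated libraries lay between 45 and 55% for 50 of the 71 genes, with a median of 52.4% and a range from 35.9% (brd9) to 82.0% (dpf2). The median over all 8304 genes was 51.0%. In the single libraries of these 2 groups, 50.8 to 60.0% of the 65 members listed in all 6 tables lay between 45 and 55%. Of all 6848 genes so listed, 59.8 to 60.5% did. In 18 members, or 25.4%, the C. virginalis allele was higher in all 4 libraries, against 18.8% of all genes. It was higher in none of the 4 in 5 of the 71 members and in 713 of the 8304 genes. Counts per member were moderate, with a median of 148.5 per library and a range of means from 25.8 to 1402.5, and 2 members, kdm2a and smarcal1, came down to the table minimum of 6 counts on an allele.

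**Figure D1:**
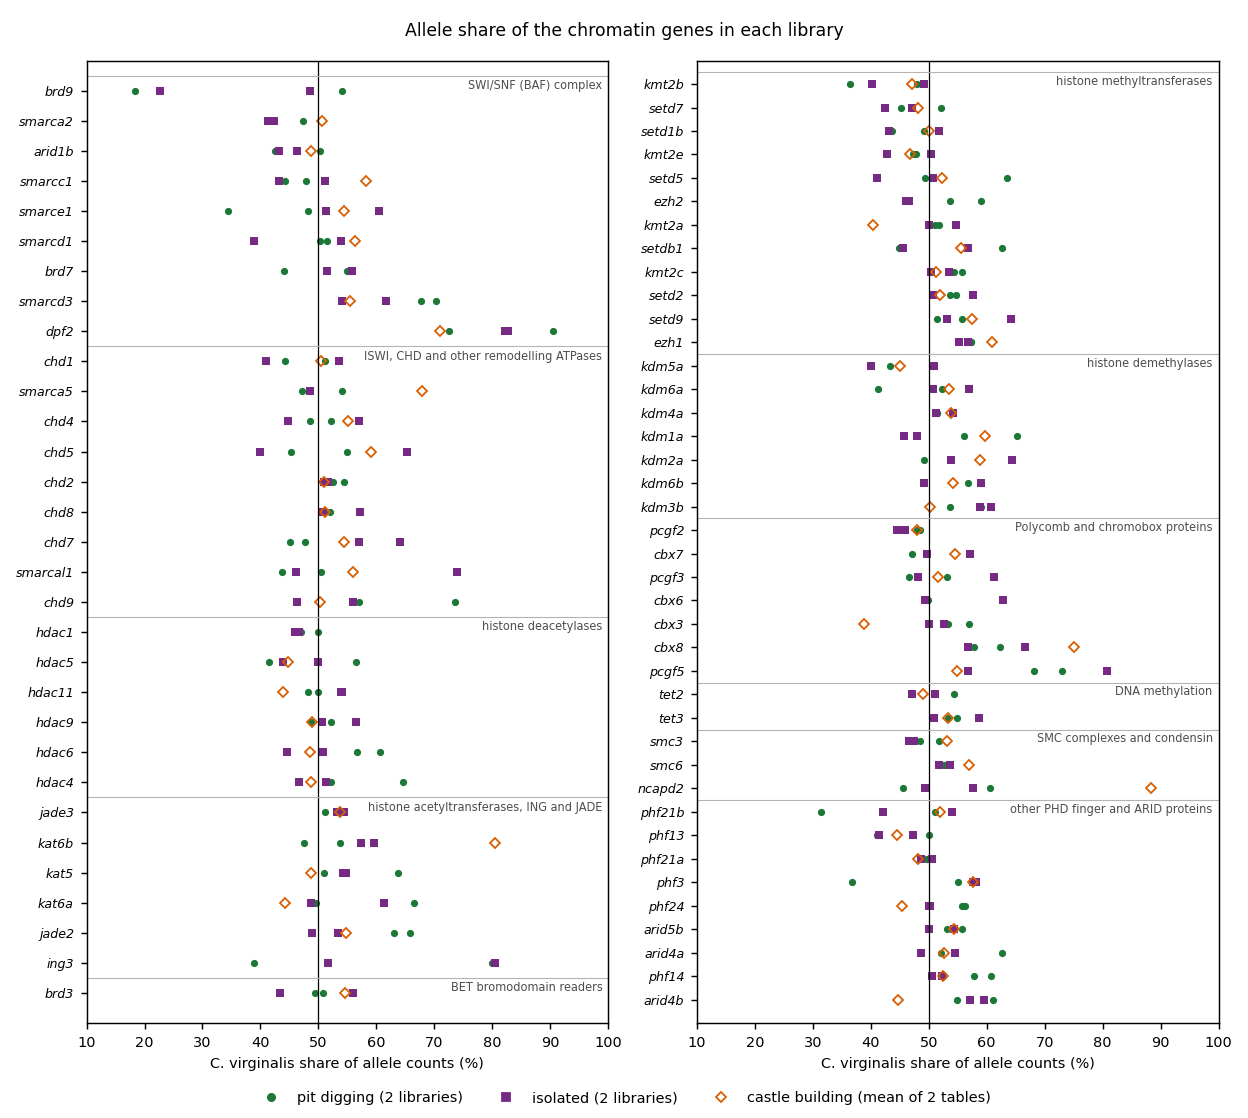
C. virginalis share of the allele counts (x axis, %) for the 71 chromatin genes, grouped by role and ordered by mean share. Green circles are the 2 pit digging libraries, purple squares the 2 isolated libraries and open orange diamonds the castle building sample, where listed; the line marks equal alleles. Most points lie between 45 and 55%, dpf2 lies between 70.9 and 90.4%, and ncapd2 stands at 88.3% in castle building against 45.5 to 60.6% in the other libraries.

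The alleles of 7 of the 71 members differed over pit digging and isolation together (quasi-likelihood test in edgeR, p under 0.05 after Benjamini-Hochberg adjustment), 6 towards C. virginalis and 1 towards M. conophoros. This share of the members, 9.86%, was near the 9.72% of all 8254 genes tested. Of the 802 genes that passed in all, 747 lay towards C. virginalis and 55 towards M. conophoros. The direction was therefore not particular to the chromatin genes. C. virginalis alleles held 52.2 to 53.9% of all counts in each library. The median log2 ratio of C. virginalis over M. conophoros counts was 0.14 in the members and 0.05 over all genes. All 71 members passed the filter on low counts. The count fell whichever library was left out. Such a fit keeps 1 library in a group and has fewer residual degrees of freedom, so it does not single out a library. DESeq2 called 2.

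Of the SWI/SNF remodelling complex, 3 of 9 members passed, and not in the same direction. The gene dpf2, a PHD finger subunit that reads histone tails, had C. virginalis shares of 90.4 and 72.5% in the pit digging libraries and 82.8 and 82.1% in the isolated libraries. Every library was far above an equal share, and pit digging replicate 1 was the highest. The log2 ratio was 2.33 ± 0.25 (SE), a 5.04-fold difference (edgeR, adjusted p = 0.00119). It rested on 11 to 15 M. conophoros counts per library, and dpf2 kept its call in all 9 alternatives that tested it. For smarcd3, an accessory subunit known from heart and neural development, the shares were 67.7 and 70.4% in the pit digging libraries and 54.1 and 61.7% in the isolated libraries. All 4 were above 50%, and the groups did not overlap. Its log2 ratio was 0.78 ± 0.14 (adjusted p = 0.0124). The call was lost in 5 of 10 alternatives, among them those without pit digging replicate 1, isolated replicate 1 or isolated replicate 2. The alternative ATPase of the complex, smarca2, leaned to M. conophoros, with shares of 47.3 and 41.7% in the pit digging libraries and 42.3 and 41.3% in the isolated libraries. All 4 were below 50%, and the log2 ratio was -0.40 ± 0.09 (adjusted p = 0.0338). It passed in 4 of 10 alternatives, and in none of those that left out replicate 1 or 2 of either group (adjusted p from 0.0567 to 0.198). The DNA-binding subunit arid1b (50.3 and 42.5% in the pit digging libraries and 43.3 and 46.2% in the isolated libraries) and the core subunit smarcc1 (47.9 and 44.2% in the pit digging libraries and 43.2 and 51.2% in the isolated libraries) had mean shares below 50% without passing.

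Among histone writers, jade2 and ezh1 passed. The scaffold jade2, which recruits a MYST acetyltransferase to histones, was the most deeply counted member, with a mean of 1402.5 counts per library. Its shares were 65.8 and 63.0% in the pit digging libraries and 53.3 and 48.9% in the isolated libraries. Only isolated replicate 2 fell below 50%, and the log2 ratio was 0.46 ± 0.07 (adjusted p = 0.00773). The call was lost in 3 of 10 alternatives, among them those without pit digging replicate 1 or isolated replicate 1. All 6 acetyltransferase genes and subunits had positive log2 ratios, with a median of 0.38, but jade2 alone of them passed. The Polycomb methyltransferase ezh1 had the smallest spread of those that passed: 57.3 and 57.4% in the pit digging libraries and 56.7 and 55.3% in the isolated libraries, a mean of 56.7% ± 0.971 (SD, n = 4). Castle building, at 60.9%, was on the same side. Its log2 ratio was 0.39 ± 0.07 (adjusted p = 0.0135). It lost its call in 6 of 10 alternatives: each that left out 1 of the 4 libraries, and others that kept them all. The log2 ratio ran from 0.30 to 0.41 over the 10. Its paralogue ezh2 had shares of 53.7 and 59.1% in the pit digging libraries and 46.2 and 46.7% in the isolated libraries on 15 to 44 counts. The acetyltransferase kat6a (66.4 and 49.6% in the pit digging libraries and 61.4 and 48.8% in the isolated libraries) differed more between replicates than between groups, and jade3 stood at 51.1 and 53.1% in the pit digging libraries and 54.4 and 53.2% in the isolated libraries. The methyltransferase group was drawn by symbol, and enzyme activity was not checked. Of its other well-counted genes, kmt2c averaged 53.5% ± 2.31 (SD, n = 4) and setd2 54.2% ± 2.86 (SD, n = 4). The gene kmt2e averaged 47.0% ± 3.17 (SD, n = 4). Lowest in the group lay kmt2b (36.4 and 47.9% in the pit digging libraries and 40.2 and 49.2% in the isolated libraries).

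Among erasers, kdm3b, which removes methyl groups from histone H3, had shares of 59.1 and 53.6% in the pit digging libraries and 58.9 and 60.7% in the isolated libraries. All 4 exceeded 50%, with a log2 ratio of 0.47 ± 0.10 (adjusted p = 0.0285). It lost its call in 6 of 10 alternatives, among them TMM scaling between alleles (adjusted p = 0.0597) and those without pit digging replicate 1, isolated replicate 1 or isolated replicate 2. The demethylases kdm6a and kdm6b, which act against the Polycomb mark, had 52.2 and 41.2% in the pit digging libraries and 56.9 and 50.8% in the isolated libraries for kdm6a and 56.7 and 59.0% in the pit digging libraries and 58.9 and 49.1% in the isolated libraries for kdm6b, and kdm4a was near equal, at 52.1% ± 1.44 (SD, n = 4). None of these 3 passed. No histone deacetylase passed either, and the 6 mean shares ran from 47.4% (hdac1) to 53.7% (hdac4). The most counted of them, hdac9, had 52.2 and 48.7% in the pit digging libraries and 50.7 and 56.6% in the isolated libraries, on both sides of 50%. Of the Polycomb and chromobox genes, pcgf5, a subunit of a variant repressive complex, had shares of 73.1 and 68.2% in the pit digging libraries and 56.7 and 80.8% in the isolated libraries. All 4 lay above 50%, while the isolated pair was far apart. The log2 ratio was 1.23 ± 0.25 (adjusted p = 0.019). The call was lost in 4 of 9 alternatives, among them those without pit digging replicate 1, pit digging replicate 2 or isolated replicate 2. The well-counted cbx7, cbx3 and cbx6, which bind methylated histone tails, averaged 50.9% ± 4.29 (SD, n = 4), 53.2% ± 2.85 (SD, n = 4) and 52.9% ± 6.67 (SD, n = 4). The chromobox gene cbx8 (62.4 and 57.8% in the pit digging libraries and 66.7 and 56.8% in the isolated libraries; log2 ratio 0.64 ± 0.16, adjusted p = 0.0526) and arid4b (0.47, adjusted p = 0.0503), a subunit of a deacetylase complex, lay just outside the threshold.

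The cytosine oxidases had near equal alleles, with mean shares of 50.9% for tet2 and 54.4% for tet3. So did the cohesin core gene smc3, at 48.6% ± 2.27 (SD, n = 4), and its relative smc6, at 52.5% ± 0.877 (SD, n = 4). None of the 9 ISWI, CHD and related remodellers passed. The deeply counted chd2 had 52.6 and 54.4% in the pit digging libraries and 50.9 and 51.6% in the isolated libraries, and chd8, a gene linked to autism in humans, 51.9 and 50.5% in the pit digging libraries and 57.2 and 50.8% in the isolated libraries. The helicase chd4, the ATPase of a deacetylase complex, had 52.2 and 48.6% in the pit digging libraries and 44.8 and 57.0% in the isolated libraries. The bromodomain reader brd3 averaged 49.9% ± 5.15 (SD, n = 4). The gene phf24 matches the symbol families by its PHD finger but is known in mammals as a neuronal G-protein partner rather than a chromatin protein, and averaged 53.0% ± 3.36 (SD, n = 4). The reader phf21a, a partner of a demethylase complex, was the most even of the 71 by its farthest library: its shares were 49.7 and 49.8% in the pit digging libraries and 48.6 and 50.5% in the isolated libraries.

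In a few members the 4 shares varied by more than counting error gives, within or between the groups. Their SD over the 4 pit digging and isolated libraries was over 2 times its counting error in 10 of the 71 members. The median ratio over the 71 was 1.14. This ratio was not computed for genes outside the set, so the count cannot be called particular to chromatin genes. The ratio was highest for jade2 (5.12), brd9 (4), chd9 (3.43) and ing3 (3.39). In jade2 the spread lay mostly between the groups, since the SD within a group was 2.002 percentage points in pit digging and 3.16 in isolation. In brd9 it lay within them, at 25.3 and 18.3. The 49 members with a mean of at least 100 counts had a median SD of 4.29 percentage points, and the 22 below it one of 6.15.

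The bromodomain gene brd9, a subunit of a non-canonical SWI/SNF complex, had shares of 54.1 and 18.3% in the pit digging libraries and 48.5 and 22.7% in the isolated libraries. In each group replicate 1 was near equal and replicate 2 was low. The C. virginalis allele stood at 16.6, 16.6, 15.5 and 12.7 CPM in pit digging 1 and 2 and isolated 1 and 2. The M. conophoros allele stood at 14.1, 74.2, 16.4 and 43.3 CPM. The libraries therefore differed mainly in the M. conophoros allele, and the mean over libraries did not pass (log2 ratio -1.06 ± 0.40, adjusted p = 0.175). For ing3, a subunit of an acetyltransferase complex, the shares were 80.0 and 38.8% in the pit digging libraries and 51.7 and 80.4% in the isolated libraries, on 51 to 75 counts. Here the high libraries were replicate 1 of pit digging and replicate 2 of isolation. Over all genes tested, the replicate deviations of the 2 groups had no common direction (Pearson correlation of the allelic log2 ratios -0.02 across 8254 genes, a description).

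**Figure D2:**
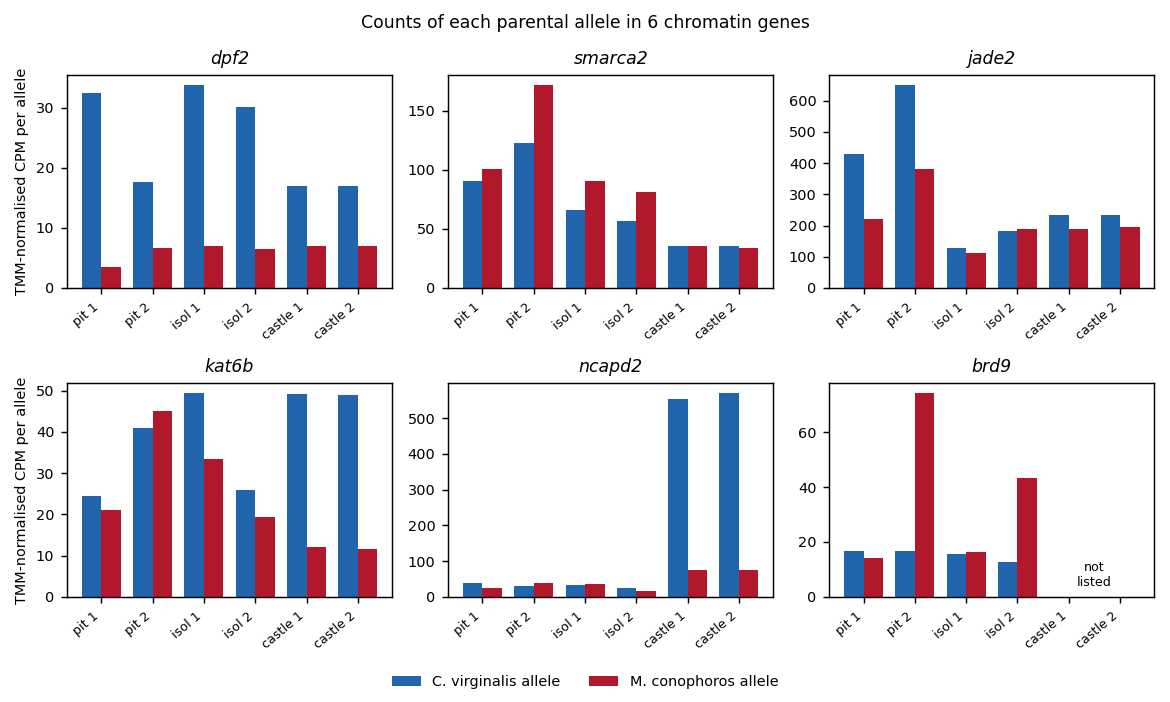
Level of each parental allele (y axis, TMM-normalised CPM) in each library for dpf2, smarca2, jade2, kat6b, ncapd2 and brd9. Blue bars are the C. virginalis and red bars the M. conophoros allele; castle 1 and castle 2 are tables counted as 1 sample. The C. virginalis allele of ncapd2 reaches 555 to 569.6 CPM in castle building, and the M. conophoros allele of brd9 is high in replicate 2 of both groups that list it.

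Whether the allelic ratio of chromatin genes depended on the paradigm was asked first for pit digging against isolation. No member passed (0 of 71, with 0 of 8254 genes or 0% called by edgeR). At an unadjusted p under 0.05 stood 5 members and 448 genes, and DESeq2 called 0 members and 5 genes. The shares of the groups did not overlap in 24 members, or 33.8%, against 34.0% of all 8304 genes. Of the 24, 17 were higher in pit digging, and of the 2827 genes without overlap 1542 were. The smallest p belonged to jade2, with 65.8 and 63.0% in the pit digging libraries and 53.3 and 48.9% in the isolated libraries (difference of log2 ratios 0.80 ± 0.15, adjusted p = 0.285). Its C. virginalis allele stood at 428 and 652 CPM in pit digging and 127 and 182 in isolation, and its M. conophoros allele at 222 and 382 against 111 and 189.8 CPM. Both alleles were thus at higher levels in the pit digging libraries, the C. virginalis allele more so. The remodeller chd7, whose human counterpart is mutated in CHARGE syndrome, lay on the other side, with 47.8 and 45.1% in the pit digging libraries and 57.0 and 64.1% in the isolated libraries (difference -0.80 ± 0.28, adjusted p = 0.815). The histone demethylase kdm1a had 65.2 and 56.1% in the pit digging libraries and 48.0 and 45.7% in the isolated libraries (difference 0.79 ± 0.29, adjusted p = 0.82), and phf14, a PHD finger protein, 60.8 and 57.8% in the pit digging libraries and 50.6 and 52.2% in the isolated libraries (0.46 ± 0.17, adjusted p = 0.82).

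In the castle building sample the alleles of 2 of 65 members differed, both towards C. virginalis, a share of 3.08% against 1.71% of 6844 genes tested. Of the 117 genes that passed in all, 109 lay towards C. virginalis. The condensin subunit ncapd2, which acts in chromosome compaction, had a C. virginalis share of 88.3% (exact 95% binomial interval 86.5 to 89.9%, counting error only; log2 ratio 2.91 ± 0.27, adjusted p = 0.00267). In the other groups its shares were 60.6 and 45.5% in the pit digging libraries and 49.3 and 57.6% in the isolated libraries, on both sides of 50%. The ratio in castle building differed from pit digging (-2.70 ± 0.34 for pit digging minus castle building, adjusted p = 0.0492) and from isolation (2.74 ± 0.36 for castle building minus isolation, adjusted p = 0.042). It was the only one of 65 members to pass in either comparison, where 0.175% and 0.263% of all genes did. Both comparisons share the castle building sample. Without isolated replicate 1 or 2 neither passed (adjusted p from 0.181 to 0.423).

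The acetyltransferase kat6b, whose human counterpart is mutated in developmental syndromes, had a castle building share of 80.4% (exact 95% binomial interval 73.2 to 86.9%; log2 ratio 2.01 ± 0.27, adjusted p = 0.0144). Its shares elsewhere were 53.8 and 47.5% in the pit digging libraries and 59.7 and 57.3% in the isolated libraries. The castle building value lay above all of them, but the differences missed the threshold (-1.98 ± 0.32, adjusted p = 0.0832, for pit digging minus castle building; 1.504 ± 0.33, 0.202, for castle building minus isolation). Summed over both alleles kat6b stood at 61.0 CPM in castle building, within the 45.05 to 86.1 CPM of the other libraries. The call in castle building was lost without isolated replicate 1 or 2 (adjusted p = 0.0753 and 0.0723). The ISWI ATPase smarca5 (castle building 67.9%, elsewhere 47.1 and 54.1% in the pit digging libraries and 48.5 and 48.6% in the isolated libraries) did not pass in castle building (log2 ratio 1.08 ± 0.30, adjusted p = 0.222), nor did ezh1 (0.64 ± 0.15, 0.128). Of the other members that had passed over pit digging and isolation, and so were chosen for unequal alleles there, jade2 stood at 54.8%, smarcd3 at 55.5%, pcgf5 at 55%, dpf2 at 70.9% on 55 counts, kdm3b at 50.3% and smarca2 at 50.6% in castle building. No difference of these members between castle building and another group passed. Log2 ratios in castle building were above 0 in 43 of 65 members, with a median of 0.14 against 0.04 over all genes. They were above 0 in 6 of 7 SWI/SNF genes (median 0.33) and 8 of 9 ISWI, CHD and related remodellers (0.26). The same held for 6 of 7 demethylases (0.22), 3 of 3 SMC and condensin genes (0.40) and 3 of 5 acetyltransferase genes and subunits (0.23). So it did for 4 of 6 Polycomb and chromobox genes (0.18), 6 of 11 methyltransferases (0.07) and 5 of 9 other PHD finger and ARID genes (0.12). None of 5 deacetylases lay above 0 (-0.08). The 2 TET genes lay on either side of 0, and brd3 above it. The remodeller chd9, at a share of 50.2%, had equal counts after rounding and so was not counted as above 0.

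Summed over both alleles, chromatin genes were then compared between the paradigms. Sums count only reads over informative sites, and in whole brain fewer cells of a type and less RNA per cell cannot be told apart. Between pit digging and isolation no member passed (0 of 71, with 0 of 8254 genes or 0% called by edgeR). At an unadjusted p under 0.05 stood 9 members and 827 genes, and DESeq2 called 1 member, smarcd1, and 156 genes. The log2 difference was positive, that is towards pit digging, in 50 of 71 members, with a median of 0.26 against -0.00373 over all genes tested. This median was 0.40 without pit digging replicate 1 and 0.11 without pit digging replicate 2. The 71 members together made up 6610.4 and 7935.8 CPM in pit digging and 5579.7 and 5665.8 CPM in isolation, so the pit digging libraries were both higher. Part of this difference, but less than that of the other members together, was jade2, with 650.0 and 1034 CPM in pit digging and 239 and 371 CPM in isolation. Of the cell type markers, 4 of 4 for myelin had log2 differences towards pit digging (median 0.56; olig2 at 71.9 and 52.8 against 24.0 and 15.7 CPM), as had 4 of 8 for neurons (median -0.02) and 1 of 2 for microglia (0.26), and 3 of 3 for astroglia lay towards isolation (-0.39). None of these markers passed, and their part in the shift of the chromatin genes was not tested.

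By role, all 7 histone demethylases lay towards pit digging (median log2 difference 0.69), as did 11 of 12 methyltransferases (0.45) and all 6 acetyltransferase genes and subunits (0.19). The Polycomb and chromobox genes lay the other way in 5 of 7 (median -0.28), and the ISWI, CHD and related genes in 5 of 9. The SWI/SNF genes lay towards pit digging in 6 of 9 (median 0.40), the deacetylases in 4 of 6 (0.18), the SMC and condensin genes in 3 of 3 (0.31) and the other PHD finger and ARID genes in 5 of 9 (0.16). None of these genes passed. Among the demethylases, only kdm1a and kdm6b had both pit digging libraries above both isolated libraries. The libraries of the groups overlapped in kdm2a, kdm3b, kdm4a, kdm5a and kdm6a. The SWI/SNF subunit smarcd1 had 138 and 132 CPM in pit digging and 29.6 and 39.4 CPM in isolation (log2 difference 1.98 ± 0.27, adjusted p = 0.191). The remodeller chd9 had 145 and 155 against 69.1 and 66.5 CPM (1.16 ± 0.21, adjusted p = 0.24). Both genes were named for a small p in this test, so close replicates and separate groups follow from that choice. The C. virginalis shares of chd9 in the pit digging libraries were 73.5 and 56.9%. The level of jade2 was 650.0 and 1034 against 239 and 371 CPM (1.48 ± 0.37, adjusted p = 0.325). The Polycomb gene pcgf3 was lower in pit digging, with 38.8 and 28.5 against 78.9 and 97.1 CPM (-1.37 ± 0.30, adjusted p = 0.285).

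**Figure D3:**
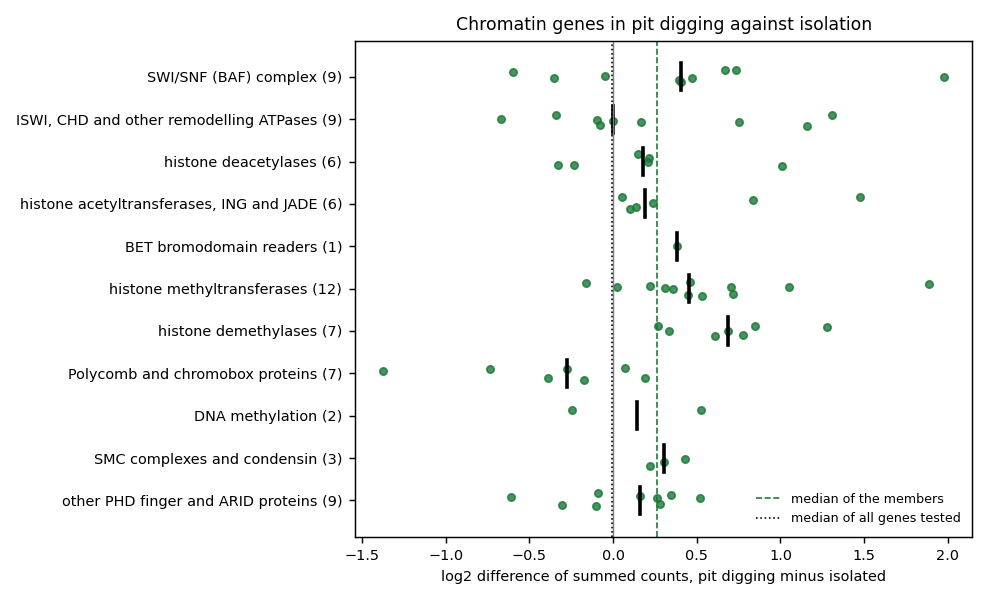
Log2 difference of summed counts, pit digging minus isolated (x axis), for each of the 71 chromatin genes (points), by role with the number of genes in parentheses. Black bars are group medians, the dashed line the median of the members (0.26) and the dotted line that of all genes tested (-0.00373). All 7 histone demethylases lie right of 0, and 5 of 7 Polycomb and chromobox genes lie left of it. A point compares the groups and does not show whether their libraries overlap.

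Several members were highly unstable between libraries of one group. The demethylase kdm2a had 4.06 and 59.0 CPM in pit digging, 6.11 and 19.7 in isolation and 119 in castle building. The deacetylase hdac4, a neuronal repressor that shuttles with activity, had 62.8 and 52.3, then 51.2 and 6.56, and 180.1 CPM. The methyltransferase kmt2a had 35.6 and 62.3, then 19.7 and 7, and 124 CPM. In all 3 the castle building sample was the highest and the lowest allele counts, at 6 for kdm2a, 7 for hdac4 and 8 for kmt2a, lay at or near the table minimum. These 3 genes were chosen after their values were seen, and none passed a test between groups.

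In sums, a few members passed between castle building and another group, in both directions. Against pit digging 4 of 65 passed (6.15%, against 4.69% of 6844 genes), with 2 higher in castle building and 2 lower. Against isolation 4 passed (6.15%, against 6.72%), with 3 higher and 1 lower. Unadjusted p (edgeR) was under 0.05 against pit digging in 27 of 65 members and 2047 of 6844 genes. Against isolation it was so in 24 members and 2087 genes. Both comparisons share the castle building sample. Condensin's ncapd2 stood at 637 CPM in castle building, at 63.5 and 69.0 in pit digging and at 67.7 and 40.2 in isolation. The sample was higher than every other library, by a log2 difference of 3.56 ± 0.38 from isolation (adjusted p = 0.0359), and pit digging minus castle building was -3.26 ± 0.38 (adjusted p = 0.0408). The C. virginalis allele carried most of it. Alone, it gave a castle building minus isolation difference of 4.33 (adjusted p = 0.0394), and the M. conophoros allele alone gave 1.52 (adjusted p = 0.143).

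The Polycomb gene pcgf3 was also higher in castle building, at 362 CPM against 38.8 and 28.5 in pit digging (pit digging minus castle building -3.42 ± 0.32, adjusted p = 0.0408) and 78.9 and 97.1 in isolation (castle building minus isolation 2.04 ± 0.32, adjusted p = 0.0442). Unlike in ncapd2, its alleles stayed near equal, with a C. virginalis share of 51.6% in castle building. The remodeller chd7 stood at 224 CPM, against 40.4 and 28.0 in isolation (2.70 ± 0.46, adjusted p = 0.0474). Against the 41.9 and 72.8 CPM of pit digging it did not pass (-1.96 ± 0.45, adjusted p = 0.078).

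Lower in castle building was phf21a, at 35.2 CPM against 203 and 289.6 in pit digging (2.81 ± 0.38 for pit digging minus castle building, adjusted p = 0.0415) and 171 and 175 in isolation (-2.30 ± 0.37 for castle building minus isolation, adjusted p = 0.0448). The SWI/SNF subunit smarcd1 was lower than in pit digging, at 11.9 CPM (3.47 ± 0.40, adjusted p = 0.0408). From isolation it differed by -1.50 ± 0.37 without passing (adjusted p = 0.0842). Leaving out any 1 of the 4 pit digging and isolated libraries (replicate 1 or 2 of either group) took both counts from 4 to 0, with adjusted p for these genes between 0.0697 and 0.13 against pit digging and between 0.0841 and 0.122 against isolation. Castle building had the low mpz level given above, with mbp and sox10 in the range of the other libraries. Its 3 astroglial markers summed to 4018 to 4019 CPM, against 1679 to 1814 in pit digging and 1729.8 to 2550.2 in isolation. Within that list slc1a2 was above the other libraries (3796 against 1219 to 2273 CPM) and ndrg2 below them (159 against 183 to 459.7 CPM). Its 8 neuronal markers summed to 3366 to 3450.4 CPM, against 3547 to 4526 and 4096 to 4469.8, and here too members lay on opposite sides of the other libraries. The level of stmn2 was 58.2 against 454 to 528 CPM, that of elavl3 862 against 312 to 458 CPM and that of elavl4 699 against 176 to 296 CPM. The 2 microglial markers summed to 75.4 to 76.0 against 186 to 236 and 135 to 157 CPM. In sums, 4 of 16 markers tested (stmn2, nefm, slc17a6 and mpz) were lower in castle building than in isolation, and none passed as higher. The part of these markers in the chromatin gene sums was not tested.

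**Figure D4:**
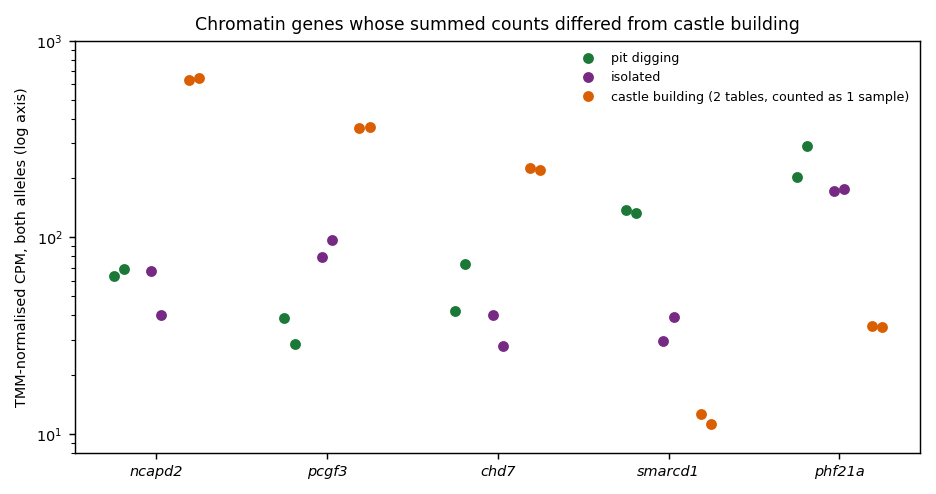
Level of both alleles together (y axis, TMM-normalised CPM, log axis) in each library for the 5 chromatin genes whose sums differed between castle building and another group. Each point is 1 table; the castle building tables count as 1 sample. Castle building lies above all other libraries for ncapd2, pcgf3 and chd7 and below them for smarcd1 and phf21a.

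Partner subunits outside the symbol families were counted in the same way. Of 149 listed partners of the same complexes, 68 had counts in all 4 pit digging and isolated libraries. Over pit digging and isolation together 2 of 68 passed, both towards C. virginalis, where 9.72% of all genes passed. Of those 802 genes, 747 lay towards C. virginalis as well. The cohesin regulator pds5b had shares of 69.4 and 64.7% in the pit digging libraries and 52.8 and 59.1% in the isolated libraries (log2 ratio 0.69 ± 0.12, adjusted p = 0.00949). The corepressor subunit tbl1xr1 had 63.3 and 72.7% in the pit digging libraries and 50 and 57.3% in the isolated libraries (0.78 ± 0.17, adjusted p = 0.0304). These shares of tbl1xr1 rested on 30 and 77 counts in pit digging and 20 and 143 in isolation. No partner's allelic ratio passed in castle building or between groups, among 58 to 68 tested. In sums, 3 of 58 differed between castle building and isolation, against 6.72% of all genes. The acetyltransferase adaptors tada3 (14.3 CPM in castle building against 86.9 and 83.1) and msl3 (27.3 against 108 and 103) were lower in castle building, and pds5b (190.1 against 66.7 and 57.7) was higher. Their adjusted p-values were 0.0414, 0.0448 and 0.0475. None of 58 differed between pit digging and castle building, against 4.69% of all genes, and none of 68 between pit digging and isolation.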

How the data were processed

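Whole-brain RNA was extracted with Trizol and sequenced as Illumina libraries, per the labels' protocols. The aligner STAR 2.4 appears in the submitters' processing notes. Build, annotation, strand, informative sites and the way alleles were counted: not given in the sources used here. The authors deposited read counts per gene on each allele, not normalized, and a log2 ratio of the counts, per the file headers, which equalled the recomputed ratio to within 5.33e-15. Totals per library were 2155680 to 3294397 counts. The table of the whole series was not used, since it repeats these counts.

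Members and gene lists were chosen with earlier results of these data known. Genes listed in the 4 pit digging and isolated tables (8304) or in all 6 (6848), with a mean total of at least 20, entered edgeR's quasi-likelihood fits (glmQLFit and glmQLFTest, version 4.0.16, R 4.3.3), giving 8254 and 6844 genes. The first set served pit digging and isolation, the second castle building, whose tables were averaged and rounded to 1 sample. Allelic fits had an intercept per library and an allele coefficient per paradigm. Sums had paradigm as the factor and TMM normalization. Each fit had 2 residual degrees of freedom, and p-values were adjusted by Benjamini-Hochberg over all genes tested, with a threshold of 0.05. An SE is the log2 value divided by the square root of F. The spread (biological coefficient of variation) was 10.8% for alleles and 34.6 and 34.1% for sums. The procedure was tested on simulated data. CPM are library totals scaled by TMM factors, and are not per length, so levels compare only within a gene. Reads of paralogues such as smarca2 and smarca4 can be shared. Named members are those that passed a test, the 4 with the smallest p where fewer passed, and the 4 with most counts per role; smarcc1, ezh2, kmt2b, cbx8, ing3, kdm2a, hdac4 and kmt2a were chosen after their values were seen. Alternatives were DESeq2 1.42.0, other scalings and filters, single alleles, a replicate block, castle building as 2 samples, and leaving out 1 library at a time.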

Additional observations from a re-analysis of the deposited data

Results flagged for a closer look

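The allelic ratio of ncapd2 differed between castle building and both other groups, by the test of the difference itself. The C. virginalis share was 88.3% in castle building, 60.6 and 45.5% in the pit digging libraries and 49.3 and 57.6% in the isolated libraries. The difference of log2 ratios was -2.70 for pit digging minus castle building and 2.74 for castle building minus isolation (edgeR, adjusted p = 0.0492 and 0.042). The C. virginalis allele stood at 562 CPM in castle building and 23.2 to 38.5 CPM in the other libraries, and the M. conophoros allele at 74.6 against 17.1 to 37.6 CPM. Each of the 2 calls was lost in 3 of 12 alternatives: without isolated replicate 1, without isolated replicate 2, and with a mean total of at least 100. Castle building is a single sample, so the sample and the paradigm cannot be told apart.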

How the results depend on the processing

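Counts of members that passed depended on the tool and the libraries. For alleles over pit digging and isolation together the count was 7, against 2 with DESeq2 and 3 with a replicate block, and leaving out each library gave 2 to 5. For alleles in castle building it was 2, against 6 with a replicate block and 9 with castle building as 2 samples (1 to 2 without each library). For pit digging against castle building it was 1, against 0 with a mean total of at least 100, 3 with the block and 4 with 2 samples (0 to 1). For castle building against isolation it was 1, against 0, 3 and 3 in the same order (0 to 1). In sums, pit digging against isolation went from 0 to 1 with DESeq2 and stayed at 0 without each library. Pit digging against castle building went from 4 to 9 with DESeq2, 28 with the block and 32 with 2 samples (0 to 4). Castle building against isolation went from 4 to 12, 26 and 33 in that order, and to 2 from the C. virginalis and 2 from the M. conophoros allele alone (0 to 4). The block fits of castle building also take it as 2 samples, although its tables differed by less than sampling noise. Fits on a single allele have fewer counts. The cause of the changes was not tested. For most of these alternatives the share of all genes that passed is not given here. Their counts therefore cannot be read as particular to the chromatin genes. Alternatives were run gene by gene for 35 pairs of a gene and a test (17 genes, those that passed or had the smallest p), and 0 of them reversed direction. The pairs were picked by p in these same libraries, and the alternatives refit the same counts or left out 1 library. The lack of reversals is therefore no separate evidence on direction. The other genes described have no such check. The replicate numbers give no pairing beyond a shared number: deviations of same-numbered pit digging and isolated libraries had a correlation of -0.02 for allelic ratios and -0.09 for sums over all genes. The depth, 148.5 counts per member and library at the median, limits single-library shares.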

Other observations

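The remodelling ATPase smarca4, the paralogue of smarca2, fell outside the 71 genes because isolated replicate 1 did not list it, and it was looked at after its values were seen. It held 1090.0 and 757 counts in the pit digging libraries, with C. virginalis shares of 52.4 and 47.8%. Isolated replicate 2 had 31.0 counts and a share of 80.6%, and neither castle building table listed it. An unlisted gene cannot be read as a count of 0, so no fold or test was made. In all, 32 symbols of the same families missed at least 1 of the 4 pit digging and isolated tables, and 7 of them missed 1 table only. Among these 7, the deacetylase hdac3 held 53 to 65 counts where listed, and hdac10 13 to 21.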
